A study of Mus musculus with 6 samples.

Results

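The FOXO transcription factors *Foxo1*, *Foxo3* and *Foxo4* and 7 of their target genes (*Sesn1*, *Sesn3*, *Ccng2*, *Bcl6*, *Klf6*, *Cited2* and *Pik3ip1*) were followed in RNA-seq libraries of the inner enamel epithelium (IEE), the epithelial layer that shapes the tooth crown and gives rise to ameloblasts. The 10 genes were taken by symbol from the 18152 genes of the expression table, and all 10 were among the 14131 genes that passed the filter on low counts. The IEE was cut from the mandibular first molar at E18.5 by laser capture microdissection, and 3 libraries were made per genotype. All mice had a C57BL/6J background and carried floxed *Kdf1* alleles. The 3 control libraries were of the *Kdf1* fl/fl genotype, which some sample labels call WT. The 3 cKO libraries also carried *K14-Cre*, and Cre under the keratin 14 promoter removes *Kdf1* from the whole stratified epithelium, the skin included, and not from the IEE alone. Neither the labels nor the methods say whether a library was made from 1 embryo or from several.

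FOXO proteins are forkhead transcription factors that carry the negative side of PI3K/AKT signalling. When AKT is active it phosphorylates them, 14-3-3 proteins bind them, and they leave the nucleus. When AKT is quiet they stay in the nucleus and switch on genes that slow the cell cycle, counter oxidative stress, start autophagy and dampen growth factor signalling. The activity of these proteins is therefore set mainly by phosphorylation and location, which RNA levels do not measure. By western blot of the E18.5 IEE, the paper reported more phosphorylated AKT in cKO, and no significant difference in phosphorylated FOXO3a. The question for these libraries was whether the transcripts of the factors and of their targets differed when epithelial *Kdf1* was lost.

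Library totals lay between 14713918 and 16675133 estimated counts, so that a count of 0 would allow 0.182 to 0.198 CPM (counts scaled to library size), a limit that covers counting error only. Each of the 10 genes had at least 18 counts in every library. *Kdf1* itself had 731 to 836 counts in the control libraries and 0, 1 and 0 in the cKO libraries. Levels are given in TPM, a relative abundance corrected for transcript length, and differences as log2 fold changes (log2FC) of the counts, cKO over control, with standard errors (SE) from edgeR's quasi-likelihood test. The labels name the libraries biological replicates, and p values measure the spread between them.

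In the *Kdf1* fl/fl IEE, *Foxo1* was the most abundant of the 10 transcripts in all 3 libraries, at 101 ± 5.36 TPM (SD, n = 3). *Pik3ip1* at 51.3 ± 3.02 TPM and *Cited2* at 47.4 ± 5.67 TPM came next, with overlapping ranges. *Foxo4* stood at 39.1 ± 4.23 TPM. From *Foxo4* down through *Ccng2*, *Klf6*, *Sesn1* and *Foxo3*, at 32.2, 29.3, 26.8 and 25.7 TPM, the range of each gene overlapped that of its neighbour in the order. *Sesn3* at 13.8 ± 1.44 TPM and *Bcl6* at 1.03 ± 0.414 TPM were set apart below. In the *K14-Cre;Kdf1* fl/fl IEE, *Pik3ip1* was the most abundant in all 3 libraries, at 71.0 ± 1.82 TPM. *Foxo1* was at 53.1 ± 2.59 TPM there, next to *Cited2* at 49.1 ± 1.71 TPM and *Ccng2* at 46.6 ± 7.92 TPM, with overlapping ranges.

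**Figure D1:**
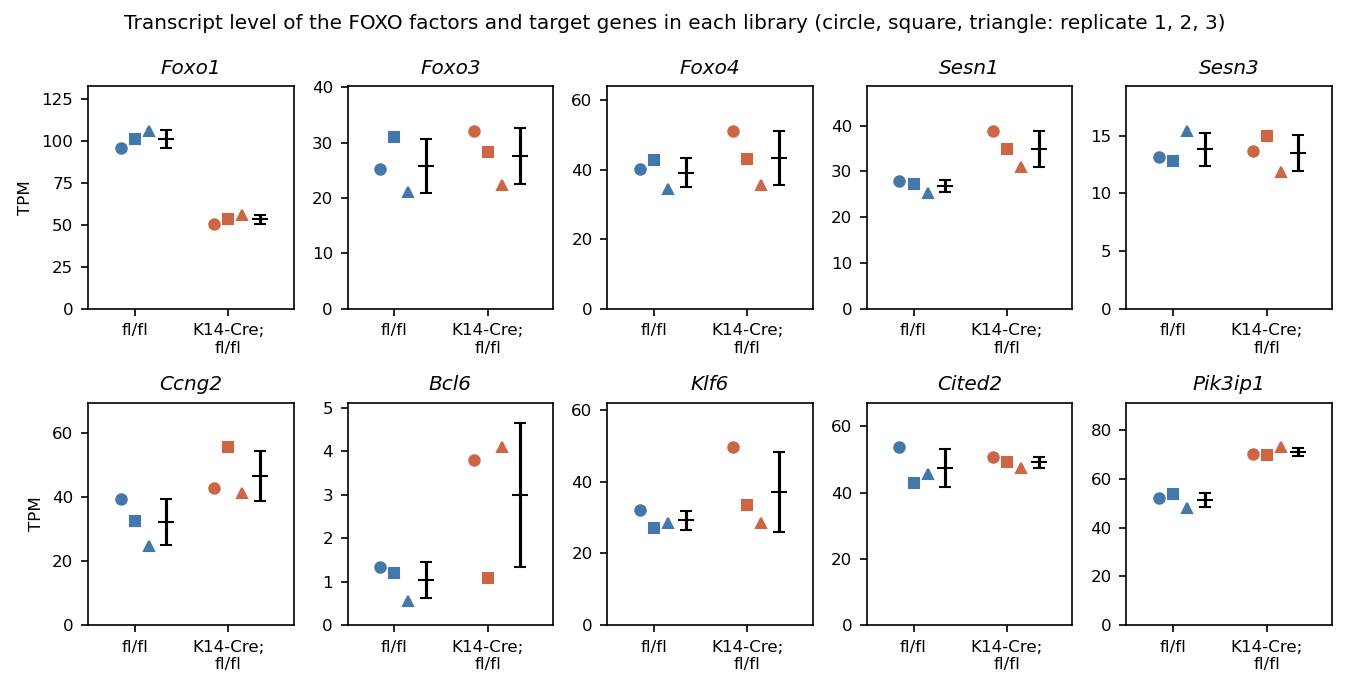
Level in TPM (vertical axes, each from 0) of each gene in the 3 *Kdf1* fl/fl libraries (blue) and the 3 *K14-Cre;Kdf1* fl/fl libraries (red), with the group mean and SD as a black bar. The groups are separate for *Foxo1* (95.3 to 106 against 50.6 to 55.8 TPM), *Pik3ip1*, *Sesn1* and, narrowly, *Ccng2*, and overlap for the other 6 genes.

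Of the factors, *Foxo1* was the one that fell. FOXO1 is the family member best known from insulin signalling, where it drives genes of fasting metabolism. Its level was 95.3, 101 and 106 TPM in the control libraries and 50.6, 53.1 and 55.8 TPM in the cKO libraries. Every cKO library lay far below every control library, with a narrow spread in each group. The log2FC was −0.98 (SE 0.14, 95% interval −1.31 to −0.66), which is 1.98-fold lower in cKO. In edgeR, with Benjamini-Hochberg adjustment over all genes, the adjusted p was 0.0498. *Foxo1* ranked 40 by p among the 14131 genes, and it was 1 of 70 genes with this same adjusted p just inside the threshold. With DESeq2 the adjusted p was 1.60e-07, and with replicate numbers as blocks (the replicate block, also edgeR) it was 0.00952 (both Benjamini-Hochberg). When 1 library was left out at a time, the log2FC stayed between −1.05 and −0.88, but the edgeR call held in 1 of 6 fits. The adjusted p was 0.162, 0.0824 and 0.210 without replicates 1, 2 and 3 of control, and 0.104, 0.104 and 0.0476 without replicates 1, 2 and 3 of cKO.

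*Foxo3* encodes the factor FOXO3a, widely expressed and tied to cell cycle exit, stress resistance and survival. Its transcript was at 25.3, 30.9 and 21.1 TPM in the control libraries and at 32.2, 28.3 and 22.2 TPM in the cKO libraries. The 2 groups covered the same range. The log2FC was 0.04 (SE 0.14, 95% interval −0.29 to 0.38, edgeR adjusted p = 0.874). *Foxo4*, the X-linked member, had 40.3, 42.7 and 34.5 TPM in the control libraries and 51.3, 43.1 and 35.7 TPM in the cKO libraries. Its log2FC was 0.02 (SE 0.13, 95% interval −0.29 to 0.33, adjusted p = 0.944 in the same test). Neither interval reached the size of the *Foxo1* difference. Smaller differences inside those intervals were not detectable with 3 libraries per group.

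The make-up of the FOXO family was set out as the share of each member in its summed TPM. With *Foxo6*, a minor member at 3.06 to 4.50 TPM over all libraries, the family summed to 170 ± 7.57 TPM in control and 128 ± 9.54 TPM in cKO libraries (SD, n = 3 each). *Foxo1* made up 57.6%, 56.7% and 64.1% of the family in the control libraries and 36.9%, 41.4% and 47.2% in the cKO libraries. The share of *Foxo4* was 23.0 ± 1.93% and 33.7 ± 3.602%, and that of *Foxo3* 15.1 ± 2.29% and 21.5 ± 2.37%, in the same order. The groups did not overlap in the sum or in any of these 3 shares. Since the shares add up to the whole family, those of *Foxo3* and *Foxo4* depend on *Foxo1*, and the levels of both genes overlapped between the groups. No p is given for these values, because 3 libraries against 3 cannot give an exact two-sided permutation p below 0.10.

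**Figure D2:**
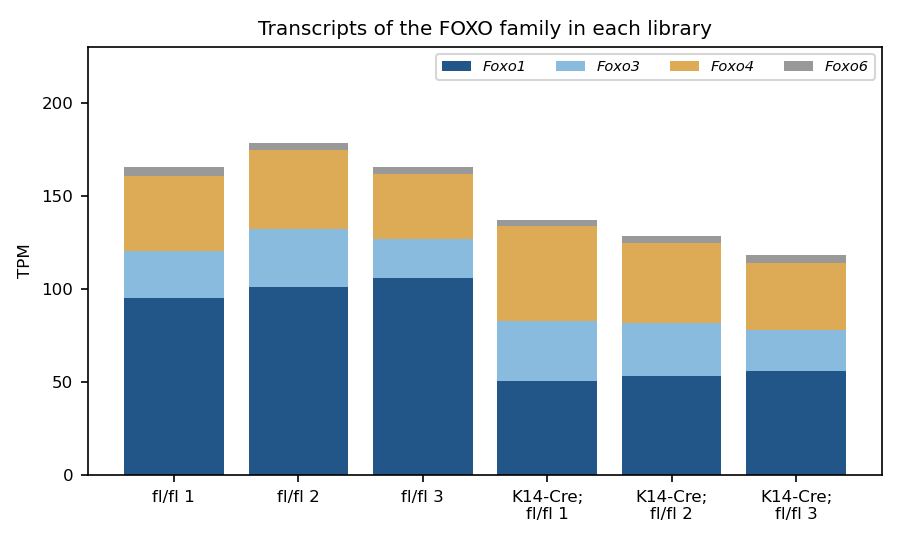
Stacked TPM (vertical axis, from 0) of *Foxo1*, *Foxo3*, *Foxo4* and *Foxo6* in each library. The bars of the 3 *Kdf1* fl/fl libraries reach 165 to 179 TPM and those of the 3 *K14-Cre;Kdf1* fl/fl libraries 118 to 137 TPM, and the *Foxo1* part is the one that is smaller.

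Most markers of the captured tissue were lower in the cKO group, as *Foxo1* was. Of 15 dental epithelium markers, 13 had a negative log2FC and none was at 0 in every library. Their summed level was 13904 to 45747 TPM in the control and 5100 to 8899 TPM in the cKO libraries. The enamel matrix gene *Amelx* alone was at 4017 to 32209 TPM in control and 9.45 to 699 TPM in cKO libraries. It made up 4017 of the 13904 TPM in replicate 1 of control and 32209 of the 45747 TPM in replicate 3. The difference in the sum therefore depends largely on this gene. *Cdh1*, which encodes E-cadherin, had a log2FC of −1.50 (SE 0.21), the keratin gene *Krt14* −1.50 (SE 0.37), and the desmosome gene *Dsp* −0.86 (SE 0.18). The epithelial adhesion gene *Epcam* was at 252 to 402 TPM in control and 281 to 334 TPM in cKO libraries, a log2FC of −0.05 (SE 0.21). In RNA from tissue, fewer cells of a type and less RNA per cell cannot be told apart. The part of tissue composition in the *Foxo1* difference was not tested.

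Among the targets, the sestrin genes were examined together. Sestrins are stress-induced proteins that restrain mTORC1, and *Sesn1* and *Sesn3* are both under FOXO control. *Sesn1* was at 28.0, 27.2 and 25.3 TPM in the control libraries and at 39.0, 34.8 and 31.1 TPM in the cKO libraries. Every cKO library was above every control library. The log2FC was 0.31 (SE 0.11, 95% interval 0.06 to 0.57), or 1.24-fold, with an adjusted p of 0.145 in edgeR and 0.0901 in DESeq2 (both Benjamini-Hochberg), so it did not pass the threshold. *Sesn3* was at 13.2, 12.8 and 15.4 TPM in control and 13.7, 14.97 and 11.9 TPM in cKO libraries. The groups overlapped in part, with a log2FC of −0.10 (SE 0.19, 95% interval −0.54 to 0.34, adjusted p = 0.779 in edgeR). The third sestrin gene, *Sesn2*, chosen after its values were seen, had a log2FC of the opposite sign to *Sesn1*. It was at 7.77 to 9.05 TPM in control and 3.98 to 7.71 TPM in cKO libraries, with a log2FC of −0.63 (SE 0.24, adjusted p = 0.165 in edgeR).

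*Ccng2* encodes cyclin G2, an unusual cyclin that is high in non-dividing cells and slows the cell cycle. Its level was 39.3, 32.5 and 24.8 TPM in the control libraries and 43.0, 55.7 and 41.2 TPM in the cKO libraries. The lowest cKO library was above the highest control library in TPM, whereas in CPM, 50.0 in replicate 1 of cKO was just under 50.8 in replicate 1 of control. The log2FC was 0.48 (SE 0.19, 95% interval 0.03 to 0.94), with an adjusted p of 0.179 in edgeR and 0.117 in DESeq2 (both Benjamini-Hochberg). Its paralog *Ccng1* was chosen after its values were seen. *Ccng1* was at 31.5 to 33.3 TPM in control and 21.8 to 27.5 TPM in cKO libraries. Its log2FC was −0.42 (SE 0.13, adjusted p = 0.129 in edgeR).

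FOXO proteins bind DNA through a short forkhead motif, and the promoters of the members were searched for it. The RefSeq promoter table for GRCm38.p6 held 11 start sites for 9 of the 10 genes, each with 250 bases before and 50 bases after the start. *Foxo4* had no entry. On both strands, 4 motifs were searched. The forkhead forms were GTAAACA, its variant ATAAACA, and the further variant GTAAATA. The insulin response form was CAAAACAA. At least 1 of them was found in 2 of the 11 windows, those of *Sesn1* and *Ccng2*, against 12.7% of all 32851 promoters in the table. GTAAACA alone was present in 3.65% and CAAAACAA in 2.51% of all promoters. These are the 2 matches, shown because they are the only ones among the members, with the matched bases in capitals:
Sesn1: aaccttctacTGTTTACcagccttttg
Ccng2: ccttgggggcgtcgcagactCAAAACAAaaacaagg

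The *Sesn1* match lies on the minus strand of chr10:41810586-41810612 (GRCm38.p6, gene on the plus strand), begins 22 bases after the upstream of its 2 annotated starts, and reads GTAAACA on the opposite strand. The *Ccng2* match lies in chr5:93267537-93267572 on the plus strand and begins 16 bases before the start. The window of the other *Sesn1* start and those of *Foxo1*, *Pik3ip1* and the remaining members with an entry held none of these motifs. A match describes the sequence and not a bound site, and sites further away were not searched. GC content was 51.7% to 75.0% in the members' windows, with a median of 62.7%, and the median over all promoters was 52.7%. *Sesn1* and *Foxo3* lie close together on chromosome 10, with *Armc2* as the only protein-coding gene between them in RefSeq, and *Cited2* is on the same chromosome.

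*Pik3ip1* encodes a membrane protein that binds the catalytic subunit of PI3K and inhibits it. It was at 52.2, 53.8 and 47.9 TPM in the control libraries and at 70.2, 69.7 and 73.1 TPM in the cKO libraries. The groups were well apart, and the spread within each was small. The log2FC was 0.40 (SE 0.11, 95% interval 0.15 to 0.66), or 1.32-fold higher in cKO. After Benjamini-Hochberg adjustment p was 0.0938 (edgeR), 0.0141 (DESeq2) and 0.0807 (replicate block), so the call depended on the test. When 1 library was left out at a time, the log2FC stayed between 0.35 and 0.48. In RefSeq, 2 lncRNA genes overlap *Pik3ip1* and 1 each overlaps *Foxo3* and *Bcl6*. None of them has a row in the expression table, and it is not stated whether reads were counted by strand.

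*Bcl6*, a transcriptional repressor best known from germinal centre B cells, was the least abundant member. It had 1.34, 1.19 and 0.56 TPM in the control libraries and 3.81, 1.09 and 4.10 TPM in the cKO libraries, from 18 to 44 and from 36 to 128 counts. Replicates 1 and 3 of cKO were above all control libraries, and replicate 2 lay within them. The log2FC of 1.53 had the widest interval of the 10 genes, 0.23 to 2.83 (SE 0.55, adjusted p = 0.153 in edgeR and 0.0580 in DESeq2). Without replicate 3 of cKO it was 1.21 and without replicate 2 of cKO 1.95.

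*Klf6*, a zinc finger factor induced by injury and in vessel walls, was at 32.2, 27.2 and 28.4 TPM in the control libraries and at 49.8, 33.6 and 28.4 TPM in the cKO libraries. Replicate 1 of cKO stood above all others, and replicate 3 was level with the controls. The log2FC was 0.27 (SE 0.18, adjusted p = 0.399 in edgeR), and 0.089 without replicate 1 of cKO. *Cited2*, a co-activator partner of CBP/p300 that limits HIF-1 activity, had 53.8, 42.9 and 45.6 TPM in control and 50.7, 49.2 and 47.3 TPM in cKO libraries. All cKO values fell inside the control range, with a log2FC of −0.01 (SE 0.13, 95% interval −0.33 to 0.30).

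*Bcl6* and *Klf6* are also expressed in blood and vessel cells, so markers of other cell types are given here. All 11 macrophage and leukocyte markers had a positive log2FC, and their summed level was 83.6 to 186 TPM in control and 157 to 538 TPM in cKO libraries. All 10 endothelium markers did so too, with 171 to 237 TPM in control and 222 to 691 TPM in cKO libraries. For both lists the highest sum was that of replicate 1 of cKO, the library with the highest *Klf6*, whereas replicate 3 of cKO, with the highest *Bcl6*, had the lowest sums of the cKO group. The neutrophil list had 18.3 to 25.6 TPM in control and 157 to 410 TPM in cKO libraries. Papilla and odontoblast markers overlapped in sum, at 1845 to 8797 and 4526 to 5775 TPM, and 9 of 15 had a positive log2FC, among them *Twist1* with 2.23 (SE 0.33, adjusted p = 0.0498 in edgeR). The other 6 were negative, among them the odontoblast dentin gene *Dspp* at 200 to 1336 TPM in control and 7.35 to 181 TPM in cKO libraries (log2FC −3.45, SE 1.23, adjusted p = 0.152 in edgeR, 0.0484 in DESeq2 and 0.00957 with the block). No list had a marker at 0 in every library. The part of these cells in the values of the members was not tested.

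**Figure D3:**
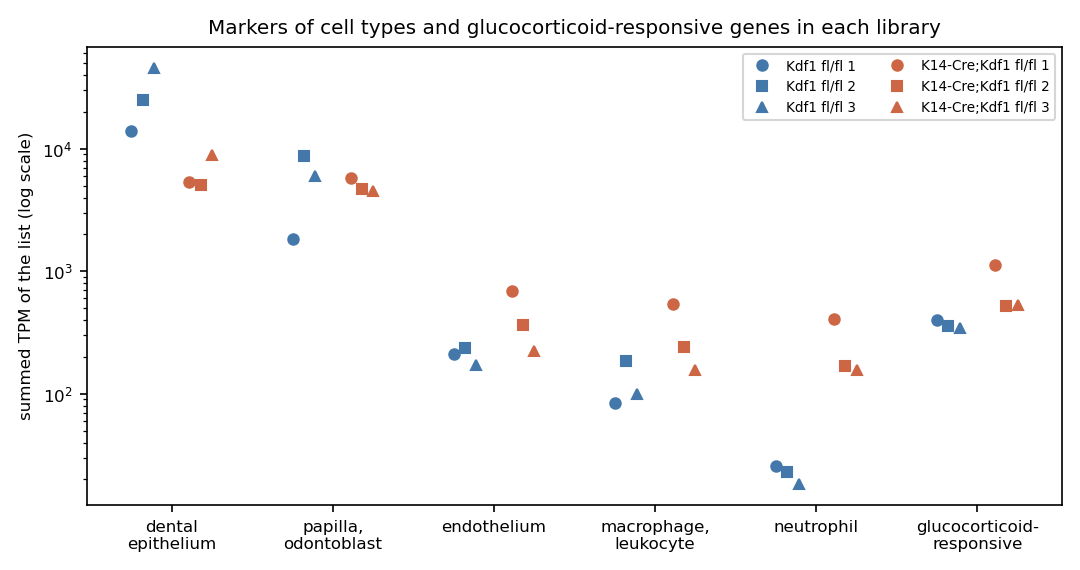
Summed TPM (vertical axis, log scale) of marker lists for 5 cell types and of a glucocorticoid-responsive list in each library (circle, square and triangle for replicates 1, 2 and 3). Dental epithelium sums are lower and neutrophil sums higher in all 3 *K14-Cre;Kdf1* fl/fl libraries, and replicate 1 of that group is the highest in endothelium, macrophage and glucocorticoid-responsive sums. The dental epithelium sums include *Amelx*, at 4017 to 32209 TPM in the *Kdf1* fl/fl libraries.

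Counted over the members, none of the 10 passed the criterion (a change of 1 or more on the log2 scale in either direction, with an adjusted p up to 0.05) in edgeR, where 0.432% of all genes did. None passed it in DESeq2 (6.94% of all genes) or with the replicate block (6.09%). *Foxo1* missed the fold change by a small margin. By adjusted p alone, *Foxo1* passed in edgeR (0.545% of all genes), and with the block (9.87%), and *Foxo1* and *Pik3ip1* in DESeq2 (12.6%). At an unadjusted p of at most 0.05 in edgeR there were 5 members, against 24.5% of all genes. They were *Foxo1*, lower like 11.6% of all genes, and *Sesn1*, *Ccng2*, *Bcl6* and *Pik3ip1*, higher like 13.0% of all genes. In CPM the groups did not overlap for 3 of the 10, and this share of 30.0% stood beside 30.7% of all genes (14.5% higher and 16.2% lower in cKO). The median log2FC was 0.16 over the members and 0.31 over the 7 targets, and −0.0043 over all genes tested. The summed level of the 7 targets was 188 to 220 TPM in control and 237 to 270 TPM in cKO libraries, to which *Pik3ip1* and *Ccng2* contributed most of the difference.

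**Figure D4:**
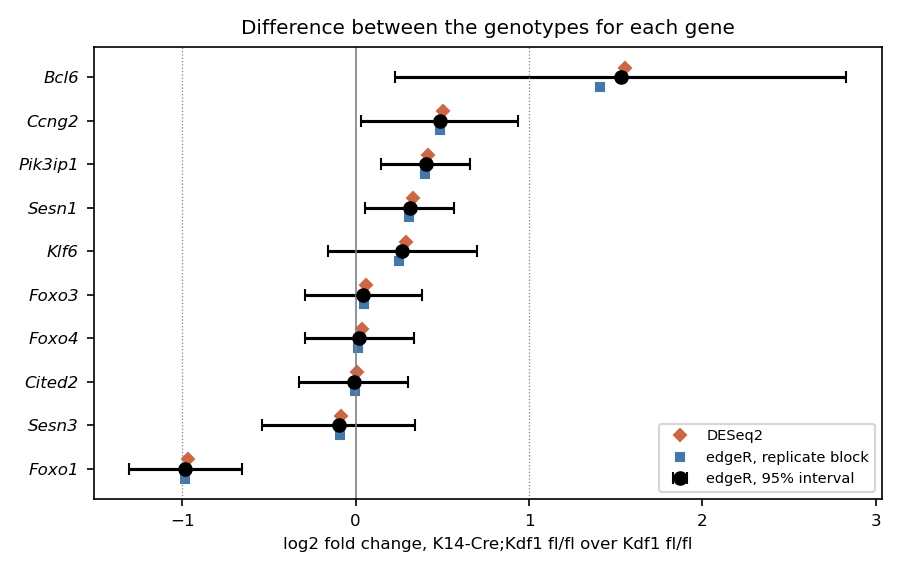
Log2 fold change of each gene (horizontal axis, *K14-Cre;Kdf1* fl/fl over *Kdf1* fl/fl) from edgeR with its 95% interval (black circles), from DESeq2 (red diamonds) and from edgeR with the replicate block (blue squares). Only *Foxo1* is lower by about 1, the intervals of *Pik3ip1*, *Sesn1*, *Ccng2* and *Bcl6* lie above 0, and those of the other 5 genes include 0.

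A wider list of 67 FOXO targets was sorted by role, and 59 of them were tested. This list was also chosen with earlier results of these data known, so its shares are descriptive only. None of the 59 passed the criterion in edgeR, and 19 had an unadjusted p of at most 0.05 (32.2%, against 24.5% of all genes). The criterion was met in DESeq2 by 4, 3 higher, with *Klf9* and *Fbxo32* among them, and 1, *Gadd45b*, lower (6.78% of the list, against 6.94% of all genes). With the replicate block, 3 passed, with *Klf9* and *Gadd45b* among them (5.08% against 6.09%). By adjusted p alone, 10 passed in DESeq2, 7 higher and 3 lower, and 7 with the block, 3 higher and 4 lower. These shares of 16.9% and 11.9% stood beside 12.6% of all genes in DESeq2 (7.39% higher and 5.25% lower) and 9.87% with the block (5.43% higher and 4.44% lower).

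The autophagy and proteolysis targets had a median log2FC of 0.26 over 11 genes tested, and in CPM the groups did not overlap for 6 that were higher and 1 that was lower in cKO (63.6%, against 30.7% of all genes). *Gabarapl1*, which encodes an ATG8-type protein of the autophagosome membrane, was at 64.0 to 66.8 TPM in control and 93.3 to 102 TPM in cKO libraries. Its log2FC was 0.51 (SE 0.11), with an adjusted p of 0.0674 in edgeR, 0.000739 in DESeq2 and 0.0379 with the replicate block (all Benjamini-Hochberg). *Atg14*, a subunit of the PI3K class III complex, had 0.47 (SE 0.15), and *Fbxo32*, the ubiquitin ligase atrogin-1, 1.02 (SE 0.34), which passed only in DESeq2 (adjusted p = 0.0428 and 0.0429). *Map1lc3b* and *Sqstm1*, the autophagosome protein LC3B and the autophagy receptor p62, had 0.33 (SE 0.13) and 0.26 (SE 0.12) and passed in none of these tests. The 1 gene that was lower without overlap, *Becn1*, had −0.26 (SE 0.12) and passed in none of them either. Of the 11 genes, 8 had a positive and 3 a negative log2FC.

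The cell cycle targets had a median of −0.05 over 12 genes, a sign that turned to 0.02 when libraries were scaled by size alone. *Ccnd1*, which encodes cyclin D1 and is repressed by FOXO proteins, was at 206 to 309 TPM in control and 128 to 195 TPM in cKO libraries. Its log2FC was −0.72 (SE 0.19), with an adjusted p of 0.0896 in edgeR, 0.00934 in DESeq2 and 0.0348 with the replicate block. *Cdkn1a*, the CDK inhibitor p21, had −0.94 (SE 0.51) with overlapping groups, and passed with the replicate block only (adjusted p = 0.300 in edgeR and 0.0146 with the block). *Cdkn1b*, the CDK inhibitor p27 and a classical FOXO target, was at 85.7 to 97.0 TPM in control and 84.2 to 108 TPM in cKO libraries, with −0.03 (SE 0.17).

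Of the oxidative stress targets (10 genes, median −0.11), *Sod2*, the mitochondrial superoxide dismutase, was at 33.3 to 39.9 TPM in control and 23.8 to 27.0 TPM in cKO libraries. Its log2FC of −0.58 (SE 0.15) had an adjusted p of 0.0906 in edgeR, 0.0240 in DESeq2 and 0.0315 with the block. *Cat*, which encodes catalase, had −0.16 (SE 0.10). Of the cell death targets (7 genes, median 0.14), the mitophagy gene *Bnip3l* had 0.32 (SE 0.11) and passed in DESeq2 only (adjusted p = 0.0433). The metabolic targets (9 genes, median −0.21) had no member past the adjusted threshold in any of the 3 fits. Its 2 most abundant genes were *Irs2*, an adaptor of the insulin receptor, at 66.2 to 94.1 TPM in control and 79.5 to 91.1 TPM in cKO libraries, and *Eif4ebp1*, a translation repressor downstream of mTORC1, at 58.2 to 80.4 and 80.4 to 111 TPM in the same order.

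The mixed group of other factors (10 genes) had a median of 0.60. *Klf9* was at 4.26 to 5.10 TPM in control and at 43.9, 15.6 and 13.3 TPM in cKO libraries, a log2FC of 2.23 (SE 0.42). Adjusted p values of 0.0637 (edgeR), 4.90e-06 (DESeq2) and 0.0178 (block) went with it. *Cxcr4*, a chemokine receptor, had 0.95 (SE 0.26) and passed in DESeq2 only (adjusted p = 0.0255). *Gadd45b*, a stress-induced gene, was at 56.5 ± 14.8 TPM in control and 25.5 ± 4.96 TPM in cKO libraries with −1.22 (SE 0.27), past the threshold in DESeq2 and with the block (adjusted p = 0.00177 and 0.0124) and not in edgeR without it (0.0726).

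**Figure D5:**
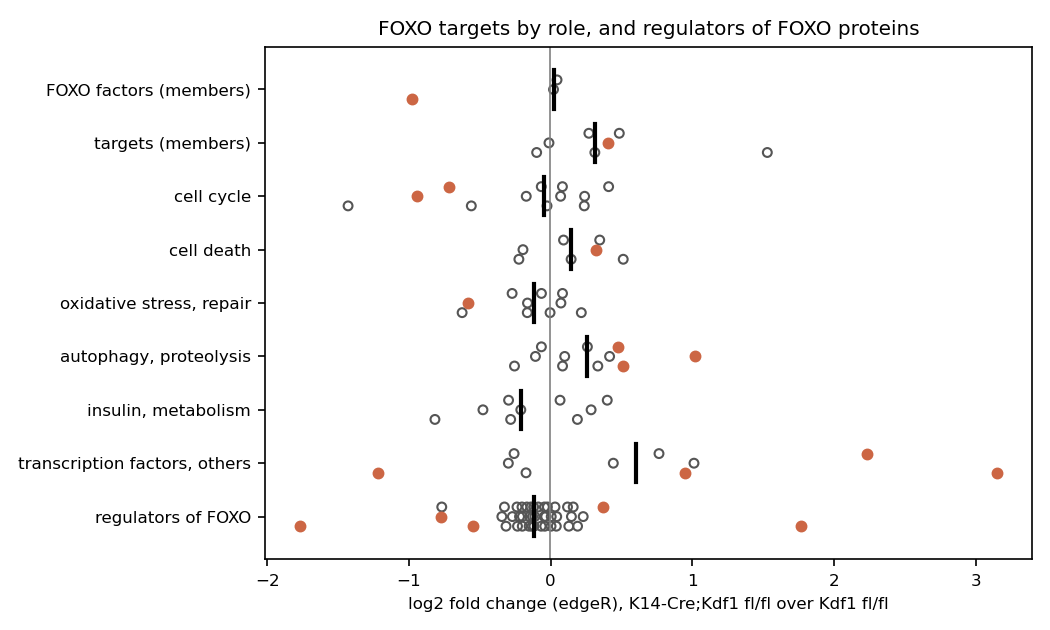
Log2 fold change from edgeR (horizontal axis, *K14-Cre;Kdf1* fl/fl over *Kdf1* fl/fl) of each tested gene by list, with the list median as a black line. Filled points had an adjusted p of at most 0.05 in edgeR, DESeq2 or edgeR with the replicate block, and most points are open in each of the 9 rows, which are the factors, the targets among the members, 6 lists of other FOXO targets and the regulators.

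Genes whose proteins act on FOXO proteins were taken as a list of 45, of which 43 were tested (median −0.12). None passed in edgeR, and 7 had an unadjusted p under the same threshold (16.3%, against 24.5% of all genes). By adjusted p, DESeq2 called 5 (11.6%, against 12.6% of all genes), and the block fit 3 (6.98%, against 9.87%). The AKT genes *Akt1* and *Akt2* had log2FC values near 0, at −0.02 (SE 0.12) and −0.04 (SE 0.17). In CPM the groups did not overlap for 15 of the 43 genes (34.9%, against 30.7% of all genes), 4 higher and 11 lower in cKO. Among the lower ones were *Sfn* and *Ywhah*, whose 14-3-3 proteins hold phosphorylated FOXO in the cytoplasm. *Sfn*, encoding the epithelial 14-3-3 sigma, was at 255 to 350 TPM in control and 56.2 to 143 TPM in cKO libraries, with a log2FC of −1.77 (SE 0.36, adjusted p = 0.0679 in edgeR, 5.82e-05 in DESeq2 and 0.00626 with the block). *Ywhah* had −0.78 (SE 0.20, adjusted p = 0.0872, 0.00662 and 0.0298 in the same order). The nuclear export receptor gene *Xpo1* had −0.55 (SE 0.14, adjusted p = 0.0872, 0.0117 and 0.0443). *Sgk1*, an AKT-related kinase that phosphorylates FOXO3, was at 23.6 to 31.7 TPM in control and at 199, 53.7 and 39.9 TPM in cKO libraries, and passed in DESeq2 only (log2FC 1.77, SE 0.55, adjusted p = 0.00602). The co-activator gene *Crebbp* had 0.37 (SE 0.10) and also passed in DESeq2 only (adjusted p = 0.0190). The part of tissue composition in the values of these regulators was not tested.

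Several FOXO targets also respond to p53 or to glucocorticoids, and these lists were set beside the members. Both lists were chosen with earlier results of these data known, so their shares are descriptive only. The p53 list (16 genes tested) had a median of 0.03, with no gene past the adjusted threshold in edgeR (5 at an unadjusted p of at most 0.05, 31.2% against 24.5% of all genes) and 1, *Ddit4l*, in DESeq2 (6.25% against 12.6%). With the block *Ddit4l*, which was higher in cKO, and *Plk2* and *Cdkn1a*, which were lower, passed (18.8% against 9.87%). Of the 5 genes at an unadjusted p in edgeR, 1 was higher and 4 were lower. Among all genes these shares were 13.0% higher and 11.6% lower. The glucocorticoid-responsive list (16 genes tested) had a median of 1.11, with *Zbtb16* and *Lcn2* past the criterion in edgeR (which 0.432% of all genes passed) and 9 genes with an adjusted p of at most 0.05 in DESeq2 (56.2% against 12.6%). *Nfkbia*, *Per1* and *Cebpd*, with log2FC values of 0.61, 1.15 and 1.96 (SE 0.12, 0.22 and 0.41), passed the adjusted threshold in DESeq2 and with the block and not in edgeR without it. *Klf9* and *Sgk1* belong to this list as well, and *Lcn2* is also abundant in neutrophils. The summed level of the list was 344 to 398 TPM in control and 519 to 1125 TPM in cKO libraries, again highest in replicate 1 of cKO. Of the 10 members, *Foxo3*, *Foxo4*, *Sesn1* and *Klf6* had their highest TPM of all 6 libraries in that library. In CPM, *Foxo3* was highest in replicate 2 of control (113, against 112 in replicate 1 of cKO). The part of these responses in the values of these genes was not tested.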

How the data were processed

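RNA-seq was analysed from 3 control and 3 cKO libraries, grouped by the sample titles. The authors deposited 1 table of 18152 genes with estimated counts (reads assigned per gene, not normalised, 10.9% to 11.5% of the gene values per library not exactly equal to a whole number). The deposited TPM values are scaled by the authors for length and to an equal total, and the deposited FPKM values, scaled for length and depth, were not used. The submitters' processing notes name BWA 0.7.12, Picard 2.6.0 and StringTie. Their roles and the genome build are not given in the sources used here. TPM from such a pipeline depends on the transcript models chosen.

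Counts were rounded, filtered with filterByExpr and scaled by TMM in R 4.3.3 with edgeR 4.0.16, and groups were compared by robust quasi-likelihood F-tests (two-sided, Benjamini-Hochberg over 14131 genes). The study's criterion was a log2 difference of 1 or more in size with an adjusted p up to 0.05. Standard errors were the log2 fold change divided by the root of F. Alternatives were DESeq2 1.42.0, limma 3.58.1 (voom, or a trend on log2(TPM + 1) and log2(TPM + 0.1)), other scalings and filters, a non-robust fit, other thresholds, a replicate block and omission of each library. The procedure was tested on simulated counts. Replicate numbers are shared by the groups. Deviations from the group means of same-numbered libraries correlated at 0.132, 0.353 and 0.520 across genes. Because each exceeded 0.1, the replicate block read the numbers as pairs. The main edgeR fit and the DESeq2 fit did not use the replicate numbers, so their p values are unpaired. No label states a shared litter, and control replicate 2 correlated with cKO replicate 1 at 0.144, above the 0.132 of the same-numbered pair. Counts of any 2 libraries differed by at least 35.5 times the sampling variance, so none was deposited in duplicate.

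The members and lists were chosen with earlier results of these data known. All 10 members were named. From each other list, up to 6 genes with the lowest p were named among those with an adjusted p of at most 0.05 in edgeR, DESeq2 or the block fit, or otherwise its 2 most abundant genes, though not every such cell type marker is printed and some list genes are not reported here. Genes outside this rule (*Foxo6*, *Sesn2*, *Ccng1*, *Akt1*, *Akt2*, *Map1lc3b*, *Sqstm1*, *Becn1*, *Cdkn1b*, *Cat* and *Epcam*) were chosen after their values were seen. The erythroid, muscle, and bone and cartilage marker lists had median log2 fold changes of 0.0094, 0.38 and 0.19. Promoters were RefSeq windows matched by gene identifier.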

Additional observations from a re-analysis of the deposited data

How the results depend on the processing

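The count of members past the criterion stayed at 0 with DESeq2, limma-voom, limma on TPM, the other scalings and filters, the non-robust fit and the replicate block. It ranged from 0 to 1 when 1 library was left out at a time, with *Foxo1* past it without replicate 3 of the cKO group (log2 fold change −1.05), a fit in which 465 of 14391 genes (3.23%) passed, against 0.432% with all libraries. With no fold change required it was 1 in edgeR, 2 in DESeq2 and 1 with the replicate block, and 5 at an unadjusted p. The count of other FOXO targets moved from 0 to 4 with DESeq2, to 3 with the replicate block and to between 0 and 1 with 1 library left out (*Klf9* without replicate 3 of cKO). With no fold change required it was 10 in DESeq2, 7 with the block and 19 at an unadjusted p. The block, read as pairing, changed the call of no member. *Foxo1* kept its direction in all 17 alternatives and had an adjusted p of at most 0.05 in 8. Fits without a library have fewer samples, and the cause of these differences was not tested. Scaling moved the median of all genes by up to 0.057 on the log2 scale.

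Members near 0 changed sign. *Cited2* was at 0.0062 with DESeq2, 0.0062 with DESeq2's size factors in edgeR, 0.024 with upper quartile scaling, 0.048 with library size alone, 0.0037 with at least 10 counts in every library, and 0.055 and 0.056 with limma on log2(TPM + 1) and log2(TPM + 0.1). With 1 library left out, *Cited2* ranged from −0.12 to 0.088, *Foxo3* from −0.036 to 0.16, *Foxo4* from −0.070 to 0.14 and *Sesn3* from −0.20 to 0.047. *Pik3ip1* passed an adjusted p of 0.05 in DESeq2 alone.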
